A study of Mus musculus with 8 samples.

Results

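The 7 genes described here encode proteins that move material across the endothelial cell or let it leak through. They are the caveolins Cav1 and Cav2, the diaphragm protein gene Plvap, the lipid transporter gene Mfsd2a, the transferrin receptor gene Tfrc and the lipoprotein receptor genes Lrp1 and Lrp8. They were chosen by name, and all 7 were among the 24394 gene symbols shared by the 8 tables. RNA came from endothelial cells sorted from mouse brain at postnatal day 8, with 4 libraries per group. The WT group is labelled wild type, strain C57BL/6J. The YT-ECKO group, of the same labelled strain, carries VE-cadherin-CreERT2 with Yapf/f and Tazf/f alleles. VE-cadherin is made by endothelial cells in general, so this driver is not restricted to the brain, and CreERT2 is a recombinase that acts once tamoxifen is given. The labels give no tamoxifen dose or day, do not say whether WT mice received it, and name no group with the driver or the floxed alleles alone, so these factors cannot be told apart from the loss of Yap and Taz. Nor is it stated that separate mice gave separate libraries. The p-values therefore refer to the spread between libraries only, which may be technical.

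Brain endothelial cells carry little vesicular traffic compared with those of most organs. Caveolae are small membrane pits built from caveolins and cavins, and Mfsd2a, which imports lysophospholipids that carry omega-3 fatty acids, is known to keep caveolar transcytosis low at the blood-brain barrier. Plvap forms the diaphragms of fenestrae and caveolae in leaky vessels and is largely lost as the barrier matures. Tfrc, Lrp1 and Lrp8 bind iron-loaded transferrin or lipoproteins and other ligands, and enter by clathrin-coated pits. Yap and Taz, the products of Yap1 and Wwtr1, are held in check by Hippo signalling and switch on genes together with TEAD transcription factors. The comparison asks whether transcripts of this transport machinery differed where both genes were targeted for deletion.

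Values are scaled reads, the deposited log2 values returned to the linear scale. Each library summed to 10290700 to 10931800 scaled reads, and the spacing of low values implied 6766690 to 16760100 counted reads. Libraries of 1 group were alike only to a Pearson r of 0.684 to 0.839 across genes. Wwtr1 was lower in YT-ECKO by limma over all tested genes (log2 difference -2.45 ± 0.41, SE; adjusted p = 0.0113), and Yap1 lay lower in all 4 YT-ECKO libraries without passing (-2.39 ± 0.52, SE; adjusted p = 0.175). The Wwtr1 call held under 13 of 23 alternative settings, and the limma adjusted p ranged from 0.00141 to 0.854 over them, with lower values in YT-ECKO throughout. What remained was uneven: relative to the WT mean, Wwtr1 stood at 5.25%, 39.3%, 19% and 16.9% in YT-ECKO 1 to 4, and Yap1 at 0.473%, 30.8%, 14.9% and 20.5%. Xist, made from the inactive X chromosome of female cells, was at 6.91 scaled reads in YT-ECKO 4 and between 4150 and 22931 in the other 7 libraries. All 13 brain endothelial markers were above 0 in all 8 libraries, and their sum was 10074 to 11789 CPM (scaled reads relative to the library total) in WT and 10466 to 13399 in YT-ECKO. Other cell types left smaller sums, at most 489 CPM for 5 choroid plexus epithelium markers, 183 for 6 neuronal and 177 for 12 mural markers. The highest sums were 115.5 CPM for 7 astrocyte, 110.7 for 6 oligodendrocyte, 43.4 for 6 fibroblast and 29 for 8 microglial markers. In contrast, 7 erythroid markers reached 4669 CPM, a sum in which Hba-a1 and Hba-a2, with equal values, were both counted. Anpep (mural), Lum (fibroblast), Aldh1l1 (astrocyte), Syt1 and Nefl (neuron), Olig1 and Sox10 (oligodendrocyte) and C1qa, P2ry12 and Ptprc (microglia) were listed at 0 in every library. Other markers of these lists were detected. Per library, 2 to 8 mural, 0 to 4 fibroblast and 1 to 4 astrocyte markers were above 0. So were 0 to 3 neuronal, 0 to 2 oligodendrocyte and 0 to 3 microglial markers.

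Of the 7 genes, 6 passed the filter on low values (10 scaled reads or more in 4 or more libraries), and 0 of these 6 differed between the groups. The test was limma, with p-values adjusted by the Benjamini-Hochberg method over all 8706 tested genes and a threshold of 0.05. Over all tested genes 0.0345% were called, all 3 of them lower in YT-ECKO. At an unadjusted p under 0.05 there were 0 of the 6, where 5.47% of all tested genes stood, and for 0 of the 6 were the groups without overlap, against 3.4% of all tested genes. Fitted values were higher in YT-ECKO for 3 and lower for the other 3, with a median log2 difference of 0.05 beside -0.09 over all tested genes. Of all 8706 tested genes, 3749 were higher and 4957 lower in YT-ECKO, the background for the counts of each list below. In sorted bulk RNA, fewer cells of one kind and less RNA per cell cannot be told apart.

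**Figure D1:**
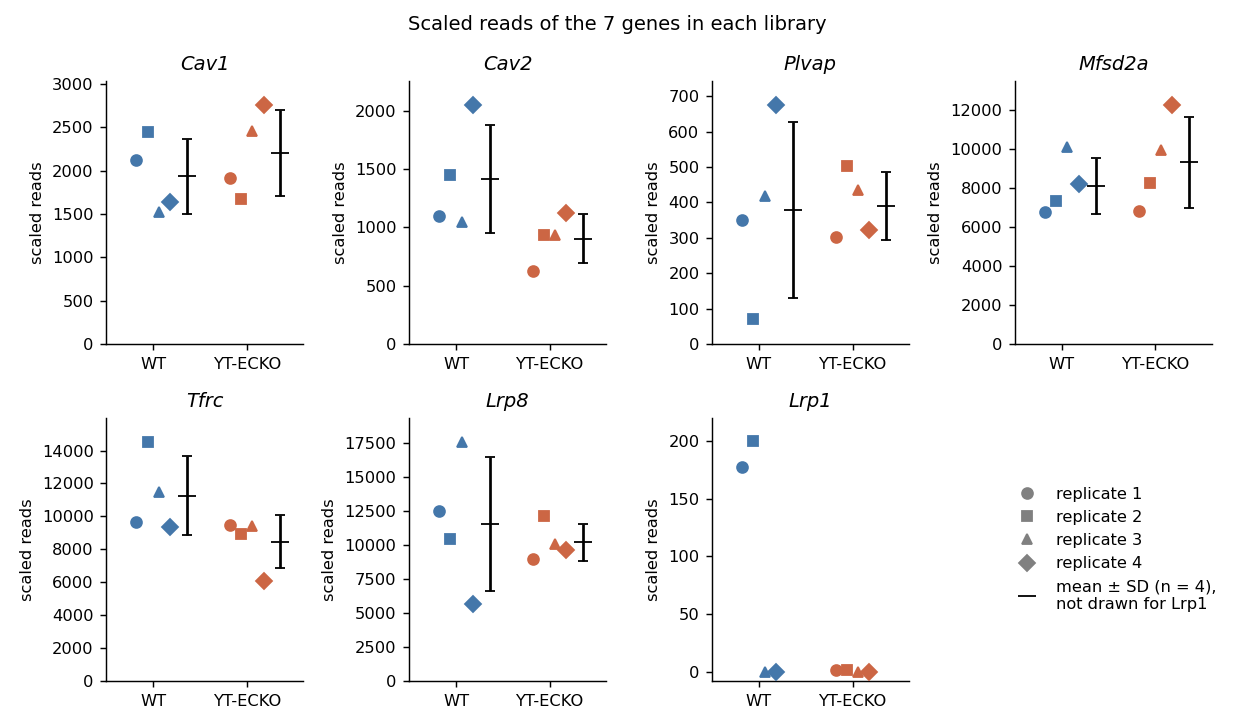
Scaled reads (vertical axes, from 0) of each gene in the 4 WT and 4 YT-ECKO libraries; point shapes mark the replicate number, and bars give the mean and SD of each group. The groups overlap in all 7 panels, and Lrp1, drawn without bars, stands clear of 0 in WT 1 and WT 2 only.

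Mfsd2a, Tfrc and Lrp8 stood above Cav1 in 8 of 8 libraries, with or without division by length. Divided by the longest annotated transcript, WT levels were 3773 ± 676 scaled reads per kb for Mfsd2a, 2302 ± 488 for Tfrc and 1746 ± 745 for Lrp8 (SD, n = 4 each). Cav1 followed at 704 ± 156, Cav2 at 517 ± 168 and Plvap at 191 ± 125 (SD, n = 4 each), and Lrp1 lay between 0 and 13.5. Mfsd2a stood above Tfrc in 8 of 8 libraries, Cav2 above Plvap in 8 and Plvap above Lrp1 in 8. Tfrc and Lrp8 were not separated (Tfrc higher in 5 of 8), and Cav1 exceeded Cav2 in 7 of 8, the exception being WT 4. This order assumes reads along the whole length. The labels name a Quant-Seq kit, a name used for reading transcript ends, and do not settle where the reads lie. Without division by length, the WT means were 11569 scaled reads for Lrp8, 11258 for Tfrc and 8116 for Mfsd2a, and Tfrc stood above Mfsd2a in 6 of 8 libraries, as did Lrp8. Cav1 then exceeded Cav2 in 7, Cav2 exceeded Plvap in 8 and Plvap exceeded Lrp1 in 7.

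Cav1 encodes caveolin-1, the scaffold without which endothelial caveolae do not form, and Cav2 its partner, which joins it in mixed oligomers. The genes are neighbours on chromosome 6 (GRCm38, plus strand): Cav2 spans 17281185 to 17289115 and Cav1 17306335 to 17341452, with 17219 bases between them. Because the pair is read together here, 120 bases upstream of the annotated start of each are shown, from RefSeq's GRCm38.p6 annotation, 5′ to 3′, with an AP-1 element (TGACTCA) and GC boxes (GGGCGG, or CCGCCC on the other strand) in capitals. AP-1 is a transcription factor family that often binds beside TEAD factors, and GC boxes bind Sp family factors. The stretches lie at chr6:17281065-17281184 (Cav2) and chr6:17306215-17306334 (Cav1).
Cav2: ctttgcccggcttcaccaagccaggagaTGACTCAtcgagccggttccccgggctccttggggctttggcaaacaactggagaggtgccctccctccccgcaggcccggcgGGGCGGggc
Cav1: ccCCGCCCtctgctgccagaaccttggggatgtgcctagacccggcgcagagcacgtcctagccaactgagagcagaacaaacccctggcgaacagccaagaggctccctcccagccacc

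Motifs were counted on both strands in windows from 250 bases before to 50 after each start, of which 10 belonged to 6 of the 7 genes (Plvap had no entry). The AP-1 element lay 92 to 86 bases upstream of the Cav2 start, in 1 of the 10 windows, and 5.2% of all 32851 promoter windows held it. GC boxes were in 4 of the 10 windows, those of Cav1, Cav2, Lrp1 and Tfrc, against 35.7% of all; Cav1 and Cav2 each had another that ran across the start, which in Cav2 shared 1 base with the one shown. The TEAD element GGAATG was in 1 of the 10 windows, against 14.7% of all. It belonged to an internal start of Lrp8, 141 to 136 bases upstream of it, on the other strand, and is shown because TEAD factors are the DNA-binding partners of Yap and Taz (chr4:107830793-107830852, plus strand, the element in capitals as CATTCC).
Lrp8: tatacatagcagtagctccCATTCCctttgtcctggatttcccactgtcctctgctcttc

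The TATA box TATAAA was in 1 of the 10 windows (Cav1), against 13.6% of all, and the E-box CAGGTG in 5 of 10, against 20.2%. No match says only that these letters are not in the window, and a match is not evidence of binding.

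Cav1 stood at 2119, 2447, 1522 and 1641 scaled reads in WT 1 to 4 and at 1915, 1670, 2454 and 2755 in YT-ECKO 1 to 4. The groups covered nearly the same range, with the highest value in YT-ECKO 4 and the lowest in WT 3. The means were 1932 ± 429 in WT and 2199 ± 495 in YT-ECKO (SD, n = 4 each), and the log2 difference, fitted after adding a pseudocount to the scaled reads, was 0.17 ± 0.36 (SE; limma adjusted p = 0.991), with a 95% interval from -0.57 to 0.92. With Xist as a covariate, which was by far the lowest in YT-ECKO 4, the difference turned to -0.0141 ± 0.40 (SE). Without YT-ECKO 4 it was 0.06.

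Cav2 stood at 1102, 1453, 1051 and 2049 scaled reads in WT 1 to 4 and at 623, 939, 931 and 1125 in YT-ECKO 1 to 4. YT-ECKO 1 to 3 lay below every WT library, and YT-ECKO 4 lay above WT 1 and WT 3. The means were 1414 ± 460 in WT and 905 ± 208 in YT-ECKO (SD, n = 4 each). The log2 difference of -0.56 ± 0.42 (SE) was the largest in size among the 6 tested genes and did not pass (limma unadjusted p = 0.196, adjusted p = 0.981), with a 95% interval from -1.42 to 0.31. In size it exceeded that of 70.7% of all tested genes.

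Within a library, the share of Cav2 in the sum of Cav1 and Cav2 does not depend on how libraries were scaled. It was 34.2%, 37.3%, 40.8% and 55.5% in WT 1 to 4 and 24.6%, 36%, 27.5% and 29% in YT-ECKO 1 to 4. Only YT-ECKO 2 reached into the WT range, where it exceeded WT 1. The mean share was 42% ± 9.45 in WT and 29.3% ± 4.85 in YT-ECKO (SD, n = 4 each), a difference of -12.7 percentage points. By exact permutation, two-sided, it missed the threshold (p = 0.0571, where the smallest p this design allows is 0.0286). Without WT 4 the difference was -8.17 percentage points. Over the 8 libraries no relation of Cav1 and Cav2 levels passed a test (Pearson r = -0.06, exact permutation p = 0.888; Spearman rho = 0, exact permutation p = 1). Without the 2 libraries farthest from the median of Cav1, WT 3 and YT-ECKO 4, r was -0.14 (exact permutation p = 0.788), and without WT 4 it was 0.37 (exact permutation p = 0.433). This was the 1 relation computed, and 4 libraries per group are too few to give it within a group. Both genes lie inside the annotated antisense gene Gm15581, and no source used here gives the strand setting of the counting.

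**Figure D2:**
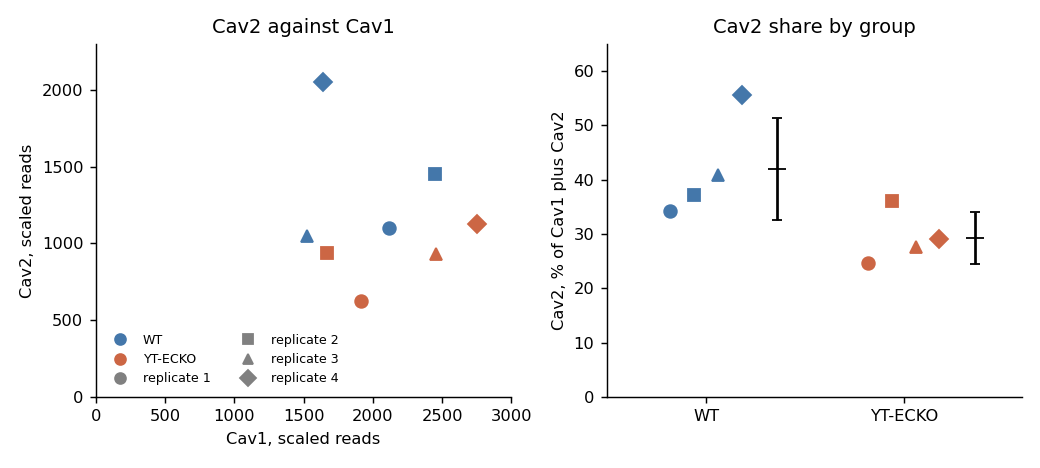
Left, Cav2 against Cav1 in scaled reads, 1 point per library; right, Cav2 as a percentage of Cav1 plus Cav2 in each library, with mean and SD per group. The YT-ECKO shares lie at 24.6% to 36% and the WT shares at 34.2% to 55.5%, with 1 YT-ECKO library inside the WT range.

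The other caveolar genes gave no call. Of the 13 genes of the caveolar coat and neck, Cav1 and Cav2 included, 10 were tested, 0 passed, and relative to WT 3 values were higher and 7 lower (median log2 difference -0.21). Cav3 and Murc, muscle forms of caveolin and cavin, and Pacsin3 were listed at 0 in all 8 libraries. Ptrf, now called Cavin1, encodes the coat protein that caveolae require and lies on chromosome 11 (100956733 to 100970887, GRCm38). It stood at 9702, 8457, 8405 and 9789 scaled reads in WT 1 to 4 and at 8119, 6752, 7266 and 8169 in YT-ECKO 1 to 4. The groups did not overlap, with a narrow gap between 8169 and 8405, and the log2 difference was -0.26 ± 0.25 (SE; limma adjusted p = 0.990). It was the 1 of the 10 tested genes without overlap, where 3.4% of all tested genes were so. Dnm2, the dynamin that pinches vesicles off the membrane, stood at 2670 ± 1049 in WT and 3476 ± 643 in YT-ECKO, and Pacsin2, which shapes the caveolar neck, at 873 ± 311 and 684 ± 417 (SD, n = 4 each), both with overlap.

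Plvap (chromosome 8, 71497765 to 71511752, minus strand) was the lowest of the 6 tested genes in both groups, near the middle of all tested genes (51.9th percentile of level). It stood at 352, 71.7, 417 and 675 scaled reads in WT 1 to 4 and at 302, 503, 436 and 322 in YT-ECKO 1 to 4. The 4 YT-ECKO values lay inside the WT range, which WT 2 and WT 4 spread out at either end. The rebuilt read number was 50 in WT 2 and at most 684, in WT 4. The means were 379 ± 248 and 390 ± 95.2 (SD, n = 4 each), and the log2 difference was 0.18 ± 0.56 (SE; limma adjusted p = 0.994), with a 95% interval from -0.98 to 1.34 and a turn to -0.22 without WT 2. The low end of the gene overlaps Gtpbp3 on the opposite strand, so reads of the pair could be mixed if strand was not used.

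Plvap is also made by the fenestrated capillaries of the choroid plexus. The summed level of 5 markers of choroid plexus epithelium was 489, 31.4, 119 and 3.91 CPM in WT 1 to 4 and 0.899, 24.7, 167 and 105.3 CPM in YT-ECKO 1 to 4, with 1 to 3 of the 5 above 0, and Kl and Folr1 listed at 0 in all 8. The highest Plvap value (WT 4) came with one of the lowest sums and the lowest Plvap value (WT 2) with 31.4 CPM; the part of these cells in the Plvap values was not tested. Of 13 genes of fenestrated or leaky endothelium, 12 had a row and 11 were tested, 0 passed, and 6 had higher and 5 lower values, with a median of 0.12. The list also counts Mfsd2a, a gene of the tight barrier, and without it 5 were higher and 5 lower, with a median of -0.03. Angpt2, an antagonist of the Tie2 receptor, stood at 436 ± 244 scaled reads in WT against 186 ± 192 in YT-ECKO (SD, n = 4 each; limma unadjusted p = 0.131), and was listed at 0 in YT-ECKO 1. Cd34, a sialomucin of the endothelial surface, stood at 14857 ± 2403 and 13032 ± 2933 (SD, n = 4 each). Esm1, a tip cell proteoglycan, was above 0 in 4 WT libraries at 11.5 to 169 and in YT-ECKO 1 alone at 168.

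Mfsd2a (chromosome 4, 122946850 to 122961188, minus strand) stood at 6803, 7327, 10114 and 8220 scaled reads in WT 1 to 4. In YT-ECKO 1 to 4 it stood at 6827, 8289, 9954 and 12271. The lowest values of the groups were nearly equal, and 1 library, YT-ECKO 4, lay above every WT value. The means were 8116 ± 1455 and 9335 ± 2337 (SD, n = 4 each). The log2 difference of 0.18 ± 0.27 (SE) did not pass (limma adjusted p = 0.990), with a 95% interval from -0.36 to 0.73. As a fold the interval ran from 0.777 to 1.66. Without YT-ECKO 4 the difference was 0.04, and with Xist as a covariate it turned to -0.0125 ± 0.29 (SE).

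Lipid uptake genes beside Mfsd2a gave no call either. Of the 14 genes of that list, Mfsd2a included, 8 were tested and 0 passed. Values were higher for 4, Mfsd2a among them, and lower for 4, with a median of -0.11. Acsl4, which activates long polyunsaturated fatty acids for storage in phospholipids, stood at 726, 847, 1018 and 522 scaled reads in WT 1 to 4 and at 582, 335, 428 and 0 in YT-ECKO 1 to 4. Only YT-ECKO 1 exceeded a WT library, WT 4, and the log2 difference was -1.18 ± 0.57 (SE; limma unadjusted p = 0.0485, adjusted p = 0.910). Spns2, the exporter of sphingosine-1-phosphate, stood at 2583 ± 515 against 1751 ± 714, and the fatty acid transporter gene Slc27a4 at 414 ± 230 against 575 ± 77.6 in WT and YT-ECKO (SD, n = 4 each). Cd36, a fatty acid receptor of many capillary beds, was listed at 0 in all 8 libraries.

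Tfrc (chromosome 16, 32608920 to 32632794, plus strand), the receptor through which transferrin carries iron into and across brain endothelium, stood at 9635, 14543, 11497 and 9358 scaled reads in WT 1 to 4. In YT-ECKO 1 to 4 it stood at 9449, 8952, 9404 and 6081. The groups overlapped only at their edges, since YT-ECKO 1 and YT-ECKO 3 lay just above WT 4 and below the other WT libraries. The means were 11258 ± 2387 and 8471 ± 1610 (SD, n = 4 each). The log2 difference of -0.40 ± 0.26 (SE) did not pass (limma unadjusted p = 0.130, adjusted p = 0.980), and its 95% interval ran from -0.94 to 0.13. Without YT-ECKO 4 it was -0.26.

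Red cell precursors also carry much transferrin receptor. The summed level of the 7 erythroid markers was 1286, 3501, 2074 and 1640 CPM in WT 1 to 4. In YT-ECKO 1 to 4 it was 4669, 1256, 3435 and 4041 CPM. Of the 7 markers, 4 to 6 were above 0 per library, and none was at 0 throughout. Hba-a1 and Hba-a2, near-identical copies, had equal values. Both entered the sum and the covariate made from it, so the same reads may have been counted again. WT 2 held both the highest sum and the highest Tfrc value of its group, while YT-ECKO 4, with the lowest Tfrc value, had the second highest sum. The part of red cell precursors in the Tfrc values was not tested. With the erythroid sum as a covariate the log2 difference of Tfrc was -0.47 ± 0.28 (SE; limma adjusted p = 0.998), and with Xist as a covariate it was -0.19 ± 0.28 (SE; limma adjusted p = 0.917).

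Iron genes around the receptor gave no call. Of 15 listed genes, Tfrc included, 12 were tested and 0 passed. Values were higher for 5 and lower for 7, Tfrc among them, with a median of -0.18. Slc11a2, which lets iron out of the endosome, stood at 916, 846, 780 and 862 scaled reads in WT 1 to 4 and at 274, 957, 464 and 323 in YT-ECKO 1 to 4, so that YT-ECKO 2 lay above all WT libraries and the other 3 below them. Slc40a1, the iron exporter ferroportin, stood at 3272 ± 1319 in WT and 2112 ± 471 in YT-ECKO, and Fth1, the heavy chain of the storage protein ferritin, at 39185 ± 4001 and 32136 ± 2349 (SD, n = 4 each). Their log2 differences were -0.74 ± 0.49, -0.55 ± 0.36 and -0.28 ± 0.18 (SE) for Slc11a2, Slc40a1 and Fth1, with limma adjusted p-values of 0.980 each.

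Lrp8 (chromosome 4, 107802261 to 107876840, plus strand), a receptor for apolipoprotein E and reelin, stood at 12529, 10463, 17597 and 5689 scaled reads in WT 1 to 4. In YT-ECKO 1 to 4 it stood at 8933, 12136, 10093 and 9595. All 4 YT-ECKO values lay inside the WT range, whose ends were WT 4 and WT 3. The means were 11569 ± 4935 and 10189 ± 1382 (SD, n = 4 each). The log2 difference was -0.08 ± 0.29 (SE, limma adjusted p = 0.994), with a 95% interval from -0.68 to 0.51. It turned to 0.16 without WT 3 and to 0.14 ± 0.33 (SE) with Xist as a covariate. Lrp8 overlaps the antisense genes Lrp8os1 and Lrp8os2, which had no rows in the tables.

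Lrp1 (chromosome 10, 127538161 to 127621148, minus strand), a large scavenger receptor, was listed at 178, 200.4, 0 and 0 scaled reads in WT 1 to 4. In YT-ECKO 1 to 4 it was listed at 1.6, 1.76, 0 and 0. It was clearly above 0 in 2 WT libraries alone, which corresponded to 289 and 141 rebuilt reads, while the YT-ECKO values corresponded to at most 2 reads. It did not pass the filter, and by exact permutation, two-sided, the means were not told apart (p = 0.429). In the limma fit without a filter the log2 difference was -0.64 ± 0.35 (SE; adjusted p = 0.854). Pericytes and smooth muscle cells also make Lrp1. The 12 mural markers summed to 177, 130, 55.9 and 37.8 CPM in WT 1 to 4 and to 15, 77.3, 120 and 36.5 CPM in YT-ECKO 1 to 4, with 2 to 8 of the 12 above 0. WT 1 and WT 2 thus held the highest sums, and YT-ECKO 3 held 120 CPM with Lrp1 listed at 0; the part of mural cells in the Lrp1 values was not tested.

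Of the LDL receptor family and its partners, 10 of 21 genes were tested, 0 passed, and 3 had higher and 7 lower values, with a median of -0.20. Lrp1b and Sorl1 were listed at 0 in all 8 libraries. Dab2, a clathrin adaptor that binds the tails of these receptors, stood at 4317 ± 2143 scaled reads in WT and 5494 ± 1535 in YT-ECKO (SD, n = 4 each). Lrp6, a Wnt co-receptor, stood at 510 ± 288 and 275 ± 143, and Lrp4 at 460 ± 191 and 335 ± 226 (SD, n = 4 each). The values overlapped between the groups for all 10.

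Other receptors that carry cargo across brain endothelium were tested in 11 of 12 cases, and 0 passed, with 5 higher, 6 lower and a median of -0.03. Cd320, the receptor for transcobalamin and its vitamin B12, stood at 849, 2687, 574 and 1653 scaled reads in WT 1 to 4 and at 3167, 1977, 2094 and 2459 in YT-ECKO 1 to 4. WT 2 lay within the YT-ECKO range and the other WT libraries below it, and the log2 difference was 0.88 ± 0.43 (SE; limma unadjusted p = 0.0480, adjusted p = 0.910). Insr, the insulin receptor, stood at 1366 ± 526 in WT and 2175 ± 673 in YT-ECKO, and the lipoprotein receptor gene Scarb1 at 2565 ± 1175 and 3097 ± 1019 (SD, n = 4 each).

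The machinery of coated pits and endosomes was measured broadly. All 17 clathrin genes were tested, 0 passed, and 11 had higher and 6 lower values, with a median of 0.08. Hip1, which links clathrin coats to actin, stood at 706, 756, 1037 and 673 scaled reads in WT 1 to 4 and at 363, 504, 434 and 133 in YT-ECKO 1 to 4. The groups did not overlap, which was so for 1 of the 17 and for 3.4% of all tested genes, and the log2 difference was -0.98 ± 0.51 (SE; limma unadjusted p = 0.0644, adjusted p = 0.928). Ap2a1, a subunit of the clathrin adaptor AP-2, ranged from 364 to 810 in the 4 WT libraries. In YT-ECKO 1 to 4 it was listed at 0, 892, 540 and 154, so the groups overlapped. All 16 genes of endosomal sorting were tested, 0 passed, and 4 had higher and 12 lower values, with a median of -0.16. Over all tested genes 3749 were higher and 4957 lower. Vps26a, a retromer subunit, stood at 687 ± 446 in WT and 288 ± 344 in YT-ECKO, and Snx5, a sorting nexin, at 1541 ± 486 and 2221 ± 703 (SD, n = 4 each). Rab4a, a GTPase of fast recycling and the 1 of the 16 without overlap (3.4% over all tested genes), was listed at 51.6, 71.7, 0 and 0 scaled reads in WT 1 to 4 and at 142, 327, 72.9 and 105 in YT-ECKO 1 to 4, so that only 71.7 and 72.9 separate the groups (limma unadjusted p = 0.0784, adjusted p = 0.928).

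**Figure D3:**
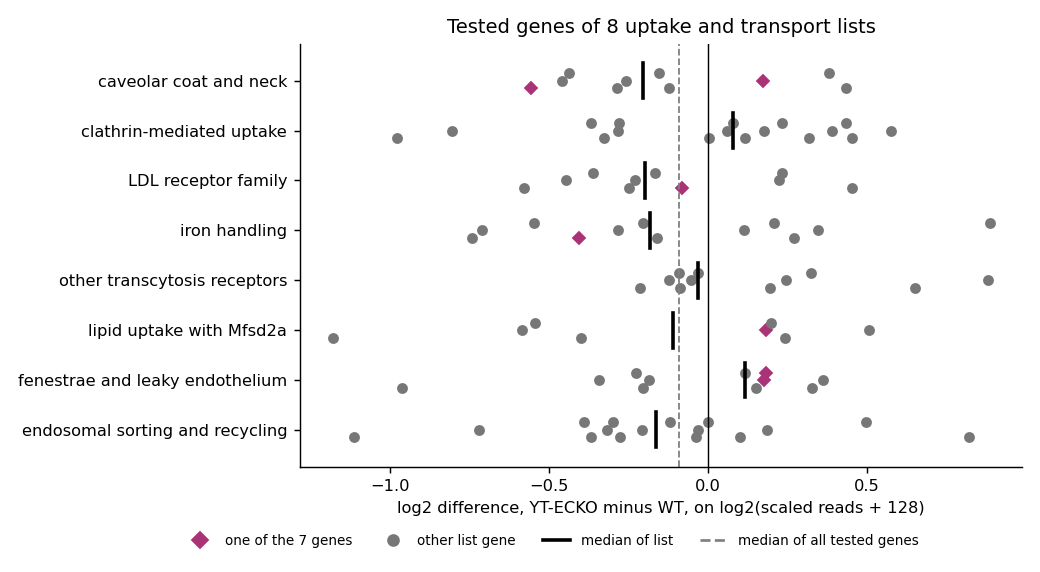
Log2 differences (YT-ECKO minus WT, horizontal axis) of each tested gene in 8 lists, 1 row per list; diamonds are the genes described here, thick bars list medians, and the dashed line the median of all tested genes at -0.09. List medians run from -0.21 to 0.12, and no point passed the adjustment over all genes; Dnm2, Dab2 and Mfsd2a each appear in 2 lists.

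How far the 6 tested genes could have differed is given by their intervals. On that pseudocount scale the 95% interval lay between 0.5-fold and 2-fold for 4 of the 6, Mfsd2a, Cav1, Tfrc and Lrp8. It reached from 0.373-fold to 1.24-fold for Cav2 and from 0.506-fold to 2.53-fold for Plvap. The intervals are for 1 gene at a time, and the pseudocount understates fold changes, most of all for Plvap. A missed threshold does not show that the groups had equal levels.

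**Figure D4:**
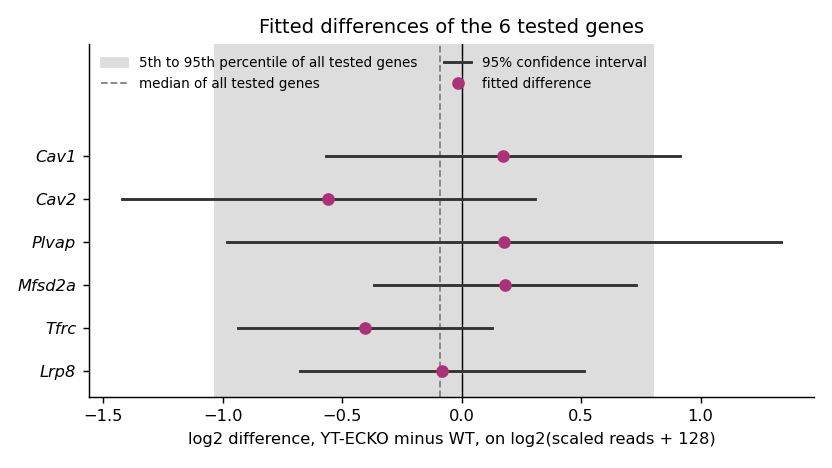
Fitted log2 difference (YT-ECKO minus WT, point) and 95% confidence interval (line) of the 6 tested genes, with the 5th to 95th percentile of all tested genes shaded. Every interval crosses 0, and the intervals of Cav2 and Plvap are the widest.

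Likeness of pattern was measured as the root mean square distance, in log2 units over the 8 libraries, between centred log2 values (pseudocount added), among genes averaging 1000 scaled reads or more. Closest to Mfsd2a were Arid4b (0.13) and Dazap1 (0.15), where the median gene stood 0.57 away. Closest to Cav1 were Cd40 (0.15) and Tbx3 (0.18). Tfrc was nearest to Dusp1 (0.15) and Slc16a1 (0.17), the monocarboxylate transporter gene of the barrier. Lrp8 was nearest to Pkp4 (0.14) and Pcnxl3 (0.18), and Plvap to Ppfibp1 (0.23) and Abhd17a (0.28). Among the members themselves the nearest pair was Mfsd2a and Cav1 (0.34), while Cav1 and Cav2 stood 0.52 apart. These distances describe the 8 libraries, and among many genes some lie close by chance alone.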

How the data were processed

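The authors deposited 1 table of log2 values per library, and no further processing is described in the sources used here beyond Bowtie2, edgeR and mm10, per the submitters' processing notes. Libraries were made from 500 ng of RNA with a Lexogen Quant-Seq kit per the labels; the design text names the NextSeq 500 as sequencer. The unit was read from the values: on the linear scale, 89.8% to 100% of values under 12 lay within 0.1 of a whole multiple of 1 step per library, so they were taken as read counts scaled to a common size. A listed 0 can stand for a gene with few reads. Symbols above 0 numbered 8621 to 9720 in WT and 7538 to 8762 in YT-ECKO libraries. The deepest library, WT 1, had the most and the shallowest, YT-ECKO 1, the fewest. Yet WT 2 had 9325 at 7543330 implied reads, and YT-ECKO 3 had 8643 at 13516800. What set detection was not tested. How many RNA molecules the rebuilt reads stand for was not tested, so read numbers may understate counting error. Limma 3.58.1 (trended, robust) was run on log2(scaled reads + 128), with YT-ECKO against WT and no covariates. Symbols were placed on GRCm38 with GENCODE M21, which matched 8653 of 8706 tested genes. Single values were compared by exact permutation in scipy 1.17.1. The functions were tested on simulated data.

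The genes named were all 7 members, Yap1, Wwtr1, up to 3 further tested genes with the smallest p of each of 8 lists, and the 2 nearest patterns (those of Cav2 are not reported here); further list genes listed at 0 in all libraries were named after their values were seen. The members, lists, pseudocount and motifs were chosen with earlier results of these data known. Alternatives were pseudocounts of 1, 16 and 512, the deposited log2 values, other scalings, other filters, voom on rebuilt reads, a replicate block, covariates (Rn45s share, erythroid sum, Xist) and each library left out. The order without division by length and the fenestrae list without Mfsd2a were added after seeing the data.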

Additional observations from a re-analysis of the deposited data

Results flagged for a closer look

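Tfrc in YT-ECKO 4 stood apart from the rest of its group. Its 6081 scaled reads lay below 8952 to 9449 in the other 3 libraries, and the gap to the nearest of them made up 0.852 of the group's range, above Dixon's 95% critical value for 4 samples. Of 16 groups of 4 values checked this way, 1 was past it, and chance alone gives about 1 in 20. The log2 difference of Tfrc was -0.26 without this library and -0.40 with it, and neither passed.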

How the results depend on the processing

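The 6 tested genes gave 138 values under the alternatives, of which 0 passed an adjusted p of 0.05 (lowest 0.761) and 5 had the other sign. Those were Mfsd2a (-0.0125), Cav1 (-0.0141) and Lrp8 (0.14) with Xist as a covariate, Plvap without WT 2 (-0.22) and Lrp8 without WT 3 (0.16). Leaving out each library in turn gave ranges of 0.04 to 0.32 for Mfsd2a, 0.06 to 0.29 for Cav1, -0.67 to -0.38 for Cav2, -0.22 to 0.45 for Plvap, -0.48 to -0.26 for Tfrc and -0.38 to 0.16 for Lrp8. Cav2 and Tfrc were lower in YT-ECKO under all 23 alternatives each. With Xist, which marks female cells, as a covariate, Tfrc was at -0.19. Lrp1 was lower under all 13 that were run. None of them could have turned its sign, because WT 1 and WT 2 held nearly all of its reads. The other alternatives planned for Lrp1 (pseudocounts, deposited log2 values, filters, voom and covariates) were not run on its exact test, apart from the unfiltered limma fit. The median over all tested genes, -0.09, moved to -0.28 with a pseudocount of 1 or the deposited values, -0.20 with a pseudocount of 16 and -0.25 with voom. The relation of Cav1 and Cav2 ranged from r = -0.19 to 0.37 over left-out libraries, with 0.37 without WT 4 and 0.01 without YT-ECKO 3 against -0.06 over all 8.

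The number of genes called over all tested genes, 3, was 0 with a pseudocount of 1, on the deposited values, without a filter and with voom, where 419, 423, 600 and 520 genes had an unadjusted limma p under 0.05. It was 1 with the erythroid covariate, 5 with Xist and 0 (without WT 2, 369 at an unadjusted limma p under 0.05) to 6 (without YT-ECKO 3) without single libraries, with 1 without WT 1. Same-numbered libraries of the groups deviated from their group means with correlations of -0.04 to 0.08, so the replicate numbers were not taken to pair them. By their own number 2 of 4 pairs correlated best. With the replicate block 5 genes were called, and the 6 members kept their differences, with limma adjusted p-values of 0.942 and above. The Cav2 share had an exact permutation p of 0.125, the smallest that 4 pairs allow, so that test could not pass. The cause of these shifts was not tested. Rebuilt reads numbered 50 to 684 for Plvap and 0 to 289 for Lrp1, and the WT libraries spread with a coefficient of variation of 65.4% and 115.9%.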
